A study of Rattus norvegicus with 12 samples.

Results

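The genes described here are the keratins and the keratin-associated proteins, the structural proteins of epithelium, hair and nail. They were taken from the deposited gene table by name, as every row whose gene name starts with Krt and a digit or with Krtap. The rule found 82 of 30560 genes: 25 type I keratins, 23 type II keratins and 34 keratin-associated protein genes. Krt6a and 4 Krtap symbols stand for more than 1 row, and such copies are given by their Ensembl identifier.

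The source was the inner red portion of a calf muscle, the gastrocnemius, in 6 wild-type Wistar Kyoto rats, all male and 9 weeks old, and total RNA was sequenced. For whole muscle, 6 libraries were made from snap-frozen tissue and 50 ng of RNA, with no treatment. The 6 libraries of isolated mitochondria were made from another, fresh portion of the muscle of the same 6 animals and 10 ng of RNA. Immunoprecipitation pulled out those mitochondria, and RNase A with proteinase K then removed accessible RNA and protein from their outside. No library of mitochondria without the enzyme step was analysed here, so isolation, enzymes, tissue handling and RNA input cannot be told apart as sources of a difference.

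Keratins build the intermediate filaments of epithelial cells. A type I (acidic) keratin pairs with a type II (basic to neutral) keratin, and each kind of epithelium uses its own pairs, such as Krt8 with Krt18 in single-layered epithelium, or Krt1 with Krt10 in the layers of the epidermis above the basal layer. Hair and nail use a separate set of cysteine-rich hair keratins, embedded in a matrix of keratin-associated proteins, which are small proteins encoded by compact genes in clusters. Skeletal muscle fibres use desmin in place of keratins as their main cytoplasmic intermediate filament. In bulk tissue, fewer cells of a type and less RNA per cell cannot be told apart.

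The stretch before the start of 3 member genes is printed to show the start regions of the member with the most muscle counts (Krt10), of the gene with the largest fold change (Krt78) and of a keratin-associated protein gene read in the mitochondria libraries alone (Krtap17-1). Each line holds the 100 bases before the annotated gene start, 5′ to 3′ on the gene's strand, from RefSeq on build GRCr8. Capitals mark the letters TATAAA, the core of a TATA box. Krt10 lies at chr10:84839161-84839260, Krt78 at chr7:134960728-134960827 and Krtap17-1 at chr10:85425040-85425139, all on the minus strand.
Krt10: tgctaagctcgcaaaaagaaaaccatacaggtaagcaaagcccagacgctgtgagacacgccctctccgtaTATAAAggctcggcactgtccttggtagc
Krt78: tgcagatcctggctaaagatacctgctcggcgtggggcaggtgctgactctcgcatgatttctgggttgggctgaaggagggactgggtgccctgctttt
Krtap17-1: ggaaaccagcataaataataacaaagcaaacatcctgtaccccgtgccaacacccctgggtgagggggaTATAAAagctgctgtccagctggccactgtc

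The letters TATAAA were found in this window of Krt10 and Krtap17-1 and not in that of Krt78. On the gene's strand, 17 of the 34 keratin promoters with a single sequence entry held them (50.0%). Of the 17 such Krtap promoters, 14 did (82.4%). Over all genes the share was 3.9% of 33469 promoters, where genes with several entries were kept. Counting either strand, the shares were 50.0%, 82.4% and 5.8%. A match is a description of the letters and not of a site in use.

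Depth was 24309444 to 32055355 counts per muscle library and 720111 to 1785865 per mitochondria library, of which in mitochondria 573903 to 1055433 fell on nuclear genes. The share of the mitochondrial genome was 26.4% to 35.9% in muscle and 12.9% to 51.5% in mitochondria, so levels are given as CPM of nuclear counts (counts scaled to a common total of counts on nuclear genes) unless stated otherwise. All 9 skeletal muscle genes tested, of 10 listed, fell in mitochondria, such as Acta1 and Mb. Over all genes tested, 30.9% were called lower. The sum of the 9 was 144400 to 176200 CPM of nuclear counts in whole muscle against 845 to 1300 in mitochondria. Levels of different genes are not corrected for transcript length and are therefore compared between groups, not between genes.

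Whole muscle held few keratin counts, and most of them came from keratins of the upper epithelial layers. The 48 keratins together had 70 to 140 counts per muscle library and a summed level of 5.27 ± 1.05 CPM of nuclear counts (SD, n = 6). Of the 48 keratins, 28 had at least 1 muscle count and 20 had none, and 7 had a count in all 6 muscle libraries. Single muscle libraries had counts for 11 to 17 keratins. The 15 keratins of the upper epithelial layers took 70.6% to 89.7% of the keratin counts of a muscle library, with a median of 83.6%. The 15 hair shaft keratins took 0.0% to 3.74%. Roles go by keratin number and are coarse. The upper layer set also holds Krt77, Krt79 and Krt6a, which are described below as keratins of glands, follicles or wounded skin.

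Krt10, the type I partner of Krt1 in the upper epidermis, was the member with the most muscle counts. It had 34 to 53 counts in the muscle libraries (median 44.0) and 14 to 57 in the far shallower mitochondria libraries (median 33.5). In CPM of nuclear counts, muscle had 2.25 ± 0.479 and mitochondria 40.4 ± 10.8 (SD, n = 6 per group). The groups did not overlap, since the highest muscle library had 3.04 and the lowest mitochondria library 24.4. Krt10 held 34.3% to 50.0% of the keratin counts of a muscle library but 1.27% to 2.90% of those of a mitochondria library.

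Other keratins had fewer muscle counts, and single libraries carried much of the sum of several of them. Krt77, a type II keratin of sweat gland ducts, had 6 to 18 muscle counts and a level of 0.582 ± 0.170 CPM of nuclear counts, against 67.4 ± 16.03 in mitochondria. Krt80, a type II keratin of differentiating epithelium, had 2 to 29 muscle counts with a median of 6.0, and 0.461 ± 0.480 CPM, against 45.9 ± 7.996 in mitochondria. Without muscle replicate 3, which had the 29 counts, its muscle level was 0.273 ± 0.148.

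Krt2, a type II keratin of the upper epidermis, had 0 to 19 muscle counts and 0.393 ± 0.377 CPM of nuclear counts, or 0.255 ± 0.182 without muscle replicate 6. Krt15, a type I keratin of basal cells and hair follicle stem cells, had 1 to 16 muscle counts with a median of 4.0, and 0.299 ± 0.293 CPM, or 0.193 ± 0.155 without muscle replicate 5. The high libraries were thus replicate 3 for Krt80, replicate 6 for Krt2 and replicate 5 for Krt15, and no library was the highest for all 3.

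Krt1, the usual partner of Krt10, had 2 to 10 muscle counts and 0.264 ± 0.202 CPM of nuclear counts, against 60.6 ± 13.04 in mitochondria. Without muscle replicate 4, which had the 10 counts, its muscle level was 0.188 ± 0.0906. Krt8, of single-layered epithelium, had 2 to 7 muscle counts and 0.233 ± 0.0935 CPM, against 40.2 ± 5.15. Krt12, the type I keratin of the cornea, had 1 to 4 muscle counts and 0.142 ± 0.0772 CPM, against 31.7 ± 7.17. In these genes, as in Krt10, every mitochondria library lay above every muscle library.

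Krt76, a type II keratin of the palate, Krt75, of the companion layer of the hair follicle, Krt79, of the follicle opening and sebaceous glands, and the keratin-like Krt222 had counts in 4 or 5 of the 6 muscle libraries. Their muscle levels ran from 0.0520 ± 0.0450 CPM of nuclear counts for Krt222 to 0.119 ± 0.0843 for Krt76, which is 14 counts over all muscle libraries. The remaining 16 keratins with a muscle count had it in at most 3 libraries.

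**Figure D1:**
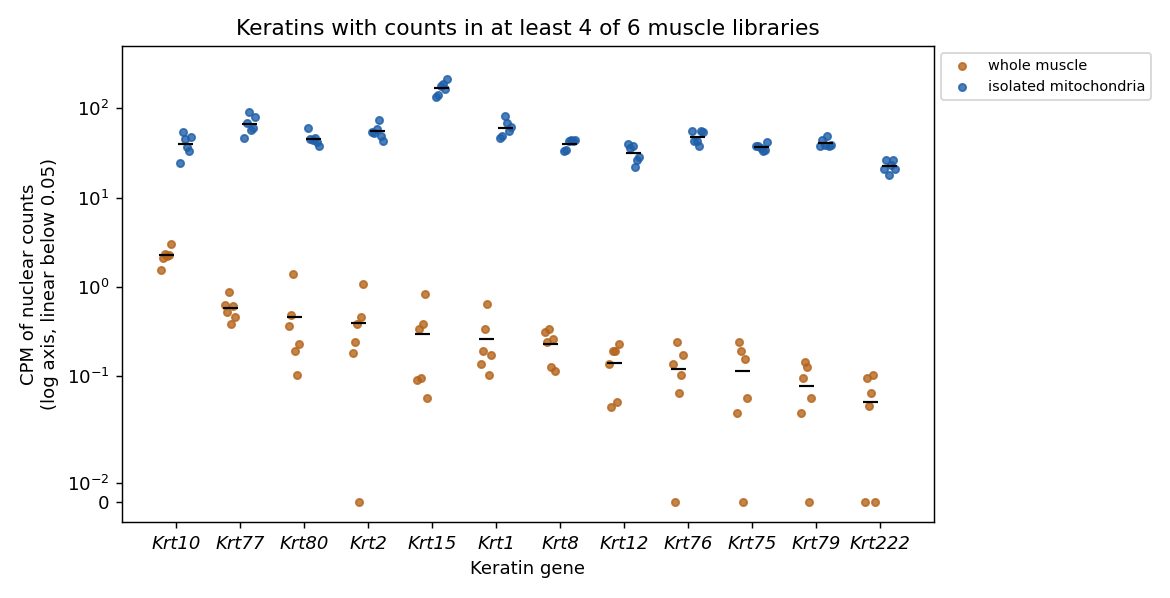
Level in CPM of nuclear counts (log axis, linear below 0.05) of the 12 keratins with counts in at least 4 of the 6 muscle libraries, with 1 point per library and a bar at the mean of each group. The muscle points spread from 0 to 3.04 and are ordered by gene from Krt10 to Krt222, while the mitochondria points lie between 18.1 and 212.6.

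All 48 keratins had counts in all 6 mitochondria libraries, as did 84.3% of all 30560 genes. Their summed level was 1903 ± 48.3 CPM of nuclear counts (SD, n = 6). Gene means ran from 19.3 to 169, with a median of 36.1. As a reference without length correction, 46 of the 48 means lay between 1.81 and 72.5, the 10th and 90th percentiles of all 30523 nuclear genes. The median over those genes was 22.3. The coefficient of variation over the 48 genes, 20 of them without a muscle count, was 57.1% in mitochondria and 311% in muscle. Without Krt10 it was 57.8% and 204%. Over the 28 keratins with a muscle count, the rank correlation (Spearman) between mean levels in muscle and in mitochondria was 0.6, without length correction. The 15 keratins of the upper epithelial layers took 32.5% to 36.4% of the keratin counts of a mitochondria library, and the 15 hair shaft keratins took 22.9% to 25.3%. For neither set did the range of shares in mitochondria overlap that in muscle.

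**Figure D2:**
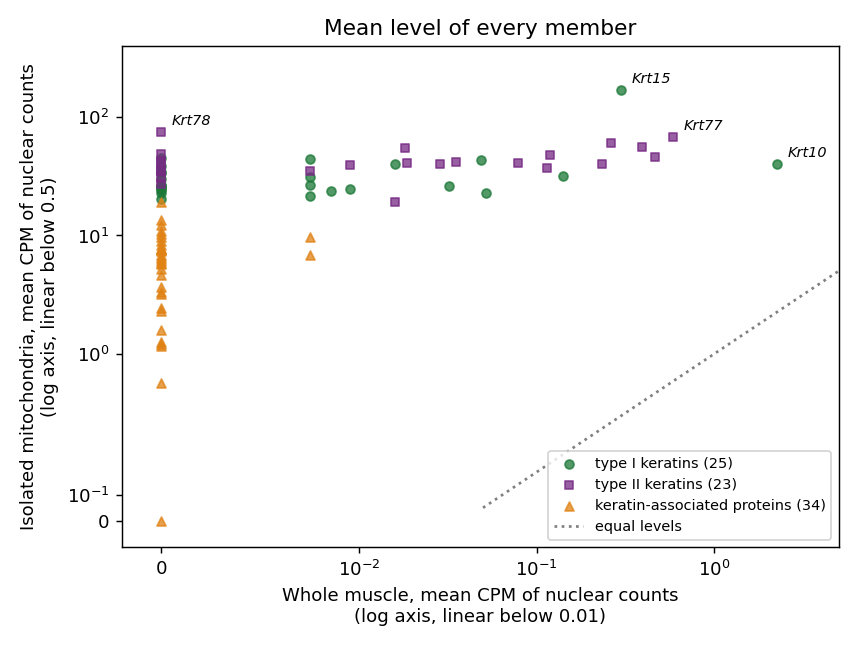
Mean level of each of the 82 members in whole muscle (x axis) and isolated mitochondria (y axis), in CPM of nuclear counts on log axes that are linear near 0, by family. Keratin means lie between 19.3 and 169 in mitochondria over the whole range of muscle levels, and all members but the gene at 0 in both groups lie above the line of equal levels.

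Krt15 had the most counts of all members in mitochondria. It had 77 to 181 counts per library there (median 145.0) and 169 ± 29.5 CPM of nuclear counts, with the lowest library at 134 and the highest at 213. It made up 6.99% to 11.1% of the keratin counts of a mitochondria library, and 0.935% to 15.7% of those of a muscle library, so that the ranges overlapped. Krt78, a type II keratin of layered epithelium, was without a count in muscle and had 42 to 80 counts per mitochondria library, with 74.8 ± 10.6 CPM. The floor of 3 counts over the muscle group is 0.0176 CPM of all gene counts. On that scale, Krt78 was at least 2704-fold higher in mitochondria. Folds over this floor given below for other genes are on the same scale, without further scaling factors.

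The spread between mitochondria libraries was, by its median, similar in keratins and in other nuclear genes with as many counts. The index of dispersion is the chi-square of the 6 counts against the nuclear depths divided by its degrees of freedom. Pure counting error gives it a mean of 1 and a median below 1. Its median was 1.10 over the 48 keratins and 1.15 over 16202 other nuclear genes with as many counts in mitochondria (97 to 848). Both medians lay above that of pure counting error. The index was above 2 in 10 of the 48 keratins, a share not computed for the other genes, and highest in Krt15 (4.15). Krt17, a type I keratin of hair follicles and of wounded epidermis, had an index of 0.127, with 28 to 46 counts and 44.6 ± 2.79 CPM of nuclear counts.

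The summed keratin level depended on the scale, as any sum over nuclear genes must. In CPM of all gene counts the sum over the 48 keratins was 930 to 1720 in the mitochondria libraries, with the highest value in the library with the lowest share of mitochondrial genome counts (replicate 3) and the lowest in that with the highest share (replicate 4). In CPM of nuclear counts the same sum was 1837 to 1974. The highest library was 1.85 times the lowest on the first scale and 1.07 times on the second. For the sum of the 16202 other nuclear genes with as many counts the ratios were 1.80 and 1.01. A sum over so many nuclear genes follows the nuclear total by construction, so its ratios were largely fixed and are a description.

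**Figure D3:**
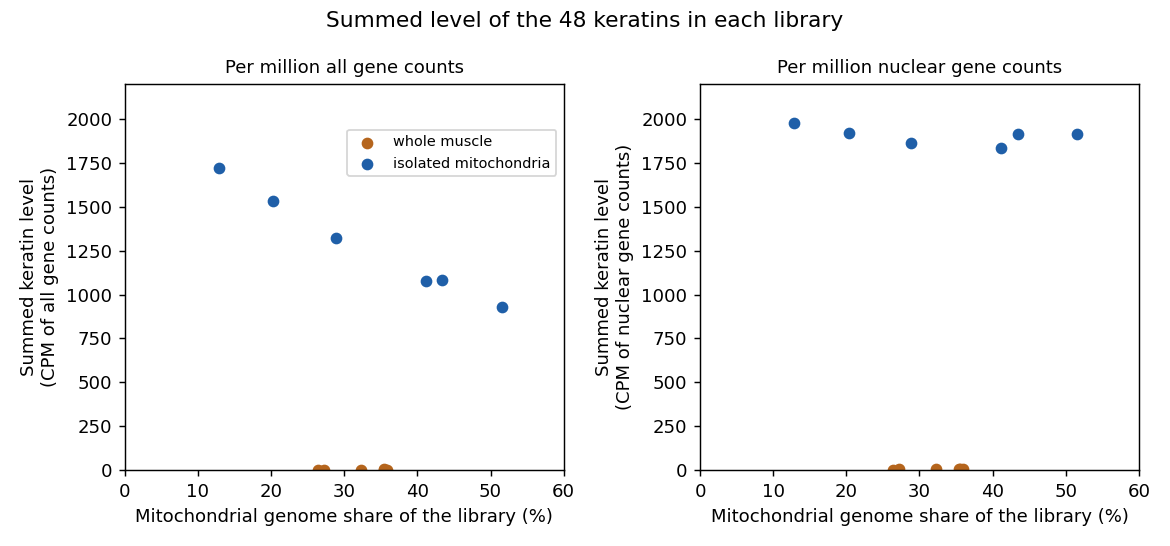
Summed level of the 48 keratins (y axis, CPM) against the share of mitochondrial genome counts (x axis, %) in each library, relative to all gene counts (left) and to nuclear gene counts (right). In the mitochondria libraries the left panel runs from 1720 down to 930 and the right panel stays between 1837 and 1974, and the muscle libraries lie near 0 in both.

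In the test across all genes, every tested keratin was higher in mitochondria. The quasi-likelihood F-test of edgeR, after TMM scaling (library factors from a trimmed mean of log ratios), was run on 24679 genes, with a threshold of 0.05 on the Benjamini-Hochberg adjusted p. The factors were 0.452 to 0.496 in the muscle libraries and 1.57 to 2.80 in the mitochondria libraries. Fitted fold changes after TMM scaling therefore lie below the ratios of CPM. All 48 keratins passed as higher and none as lower, where 62.5% of all genes tested were called higher and 30.9% lower. The groups did not overlap in any of the 48 keratins, as in 79.5% of the genes tested. The filter for low counts corresponds to 0.766 CPM of all gene counts, a level that 1 member (Krt10) reached in all muscle libraries. The other tested members entered through the mitochondria libraries and so had to differ, and their count is a description.

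The median log2 fold change was 7.86 over the 69 tested members, keratins and Krtap genes together, and 2.45 over all genes tested. With genes without a muscle count set at the floor of 3 counts, the median log2 ratio of CPM was 9.63 over the members and 4.59 over all genes tested. The smallest log2 fold changes belonged to keratins with muscle counts. They were 1.98 ± 0.20 for Krt10 (SE, edgeR adjusted p = 7.8e-11) and 4.33 ± 0.32 for Krt80. Krt77 had 4.59 ± 0.22, Krt2 4.90 ± 0.31 and Krt8 5.11 ± 0.26.

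Krt10 was the only tested member below the median of all genes. By CPM of all gene counts it was 17.5-fold higher in mitochondria (95% exact interval 14.5 to 21.1, counting error only). With total counts as the only scaling its log2 fold change was 4.14, beside a median over all genes of 4.61. That order depends on which genes are tested: with single muscle libraries left out, fewer genes of low count were tested, the median over all genes was 1.00 to 1.05 and Krt10 had 1.90 to 2.06.

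All 5 keratins of single-layered epithelium were called higher, beside 62.5% of all genes tested. Every keratin but Krt10 entered the test through the mitochondria libraries, so counts by role here and below are a description. Krt7, a type II keratin of glandular ducts, had 2 muscle counts but 272 mitochondria counts, and its ratio was 2958 in CPM of all gene counts (95% exact interval 811 to 24550, counting error only), and a log2 fold change of 8.71 ± 0.35. Krt18, Krt20 and Krt23 were the type I members of this set, and together had 5 muscle counts and 411 in mitochondria.

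The 3 keratins grouped with the basal layer, where Krt17 is placed by its number, likewise had to differ. The log2 fold change was 6.90 ± 0.26 for Krt15 and 8.94 ± 0.36 for Krt17. Krt5, the main type II keratin of basal cells, had 2 muscle counts and 201 in mitochondria, with 40.6 ± 12.1 CPM of nuclear counts there.

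Of the 15 keratins of the upper epithelial layers, all but Krt10 had to differ. The 15 spanned the widest range of log2 fold changes, from 1.98 for Krt10 to 10.54 ± 0.36 for Krt78. Next to Krt10, Krt80, Krt77 and Krt2 stood Krt12 (5.51 ± 0.30), Krt1 (5.64 ± 0.27), Krt76 (6.30 ± 0.30) and Krt79 (6.65 ± 0.30). The fitted value of Krt78, as of other genes without a muscle count, depends on the prior count.

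The hair keratins had to differ as well, and most of them had no muscle count. Of the 15 hair shaft keratins, 11 had no muscle count, and the others had 6 counts in all. Krt84, a type II hair keratin, had 28 to 55 counts in mitochondria and 48.8 ± 7.54 CPM of nuclear counts. In CPM of all gene counts it was at least 1762-fold above the muscle floor. Krt85, a type II keratin of the hair matrix, had 19 to 44 counts and was at least 1486-fold higher.

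The 8 keratins of the inner root sheath and companion layer, which line the growing hair, also had to differ. Krt26, a type I member, had 6 muscle counts in 3 libraries, 4 of them in replicate 2, and 43.9 ± 5.10 CPM of nuclear counts in mitochondria (log2 fold change 7.23 ± 0.35). Krt71, a type II member, had no muscle count and 26 to 46 counts in mitochondria, at least 1530-fold above the floor. Krt75 had 14 muscle counts and a log2 fold change of 5.93 ± 0.31. In the last set, Krt42, a type I keratin of the nail, had no muscle count and was at least 1609-fold higher, and Krt222 rose by 6.30 ± 0.36.

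**Figure D4:**
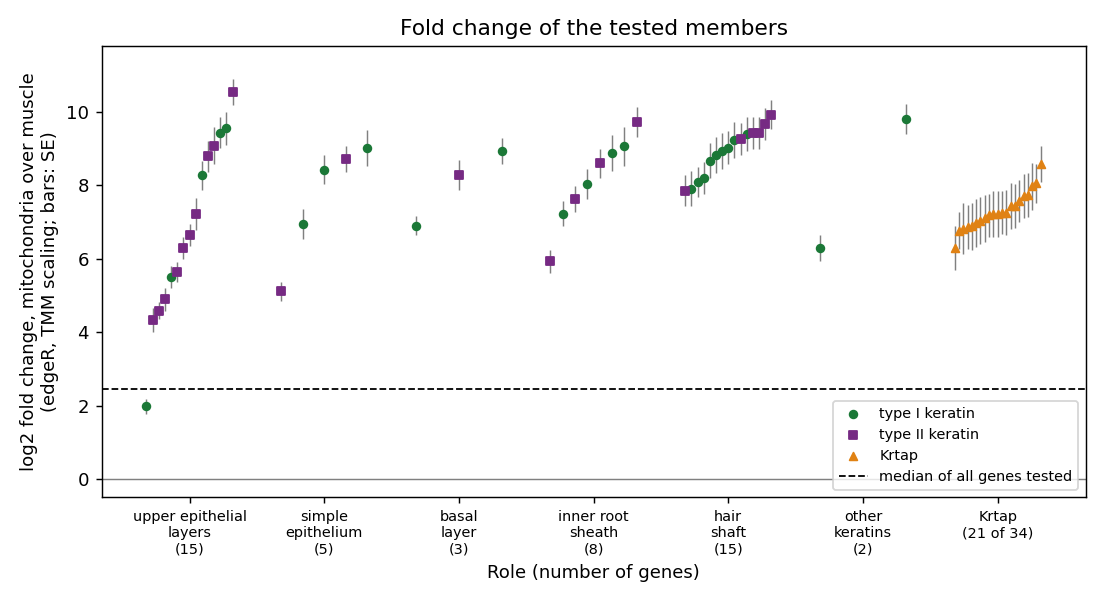
The log2 fold change between mitochondria and muscle (edgeR with TMM scaling, bars: SE) of the 69 tested members by role, with the number of genes of each role. Every point lies above 0, and Krt10 at 1.98 is the only one below the dashed median of all genes tested, 2.45.

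The keratin-associated protein genes had 2 muscle counts in all. Of the 34 genes, 32 had no muscle count, and the counts of the other two, 1 each for Krtap13-1 and for a copy of Krtap3-3 (ENSRNOG00000045678), came from muscle replicate 1. The summed muscle level was 0.0151 ± 0.0369 CPM of nuclear counts. In the mitochondria libraries 33 of the 34 had a count and 23 had one in all 6 libraries, and each library had counts for 28 to 31 of them. Their summed level there was 216 ± 12.7 CPM of nuclear counts (SD, n = 6), from 136 to 212 counts per library.

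Of the 34 genes, 21 had enough counts to be tested and all 21 were called higher. Each entered the test through the mitochondria libraries alone and so had to differ. With any 1 of the muscle libraries left out, the filter level rose and 2 of the 34 were tested and called. The groups did not overlap in 23 of the 34 genes, as in 68.1% of all 30560 genes. Without the filter for low counts, edgeR called 33 of the 34 higher, as did DESeq2, and with the keratins 81 of 82 members were called higher, where edgeR without the filter called 66.6% and DESeq2 68.7% of all genes higher.

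Krtap16-1 had 11 to 22 counts in the mitochondria libraries and 19.1 ± 3.55 CPM of nuclear counts. In CPM of all gene counts it was at least 689-fold above the muscle floor. The fitted log2 fold change after TMM scaling was a smaller rise, 8.57 ± 0.49. Krtap28-10 had 9 to 13 counts and 13.7 ± 3.23 CPM, and was at least 478-fold higher. Krtap17-1 had 4 to 24 counts and 12.2 ± 6.59 CPM, with the 24 counts in replicate 2, and was at least 457-fold higher. Krtap1-1 and Krtap29-1 had 10.8 ± 4.01 and 10.2 ± 4.16 CPM.

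The tested Krtap genes with the lowest means in mitochondria were Krtap19-5, Krtap22-2 and Krtap14, with 28, 29 and 29 counts over the 6 mitochondria libraries. In the 19 Krtap genes with a RefSeq span under 3000 bases, where span comes near transcript length because these genes are compact, the mitochondria level per kilobase of span ran from 1.60 (Krtap14l) to 28.5 (Krtap19-5) CPM of nuclear counts, with a median of 9.94. Spans are from GRCr8 and the counts from another build, so these values are approximate.

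Other genes of epithelium and skin were followed in lists chosen with earlier results of these data known. Over all genes tested, 62.5% were called higher, 30.9% lower, and the median log2 fold change was 2.45. As with the members, genes under the filter level in muscle entered the test through the mitochondria libraries and so had to differ, and counts of such genes are a description. All 21 epithelial identity genes were called higher (median 6.04), and 17 of them were under the filter level in at least 1 muscle library. Their summed muscle level was 16.4 to 21.2 CPM of nuclear counts, and 978 to 1095 in mitochondria. Those with the most muscle counts were the transcription factors Tp63 (5.41 ± 1.03 CPM in muscle, 67.4 ± 14.4 in mitochondria) and Grhl1 (3.60 ± 0.494 and 72.4 ± 16.9), with the 14-3-3 protein Sfn (2.10 ± 0.337 and 45.3 ± 11.2). Their log2 fold changes of 1.43, 2.11 and 2.21 lay below the median of all genes tested. The tight junction gene Cldn3 and the transcription factor gene Ovol2 had no muscle count. The part of epithelial cells in the keratin counts of muscle was not tested.

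Of the cornified envelope genes, which build the outer shell of dead skin cells, 16 of the 19 rows were tested and all 16 were called higher (median 8.02). None of the 16 reached the filter level in all muscle libraries, so all had to differ. Of the 19 rows, 14 had no muscle count, and their summed muscle level was 0.0 to 0.822 CPM of nuclear counts. Loricrin, the main protein of that shell, had 0.2375 ± 0.274 CPM in muscle and 39.7 ± 9.64 in mitochondria, and the transglutaminases Tgm1 and Tgm3, which cross-link it, had 0.0878 ± 0.0730 and 0.0156 ± 0.0242 in muscle. Tgm5 and Rptn had no muscle count. Of the 17 rows of hair follicle genes, 16 were tested and called higher (median 5.28), and 15 of these were under the filter level in at least 1 muscle library. The transcription factor gene Sox9 rose by 0.79 ± 0.23 on the log2 scale after TMM scaling (edgeR adjusted p = 0.00183). This rise did not pass against a fold of at least 2 (edgeR glmTreat adjusted p = 0.679). Both results are relative to the TMM factors. Without them, whole muscle had a Sox9 level of 3.426 ± 1.095 CPM of nuclear counts, and mitochondria had 27.36 ± 7.688. Also higher were the calcium-binding protein gene S100a3, by 3.45 ± 0.24, and Edar, a receptor of hair placode formation, by 4.17 ± 0.28. Padi1 had no muscle count, and Foxn1 had 1.

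Genes of cell junctions and other intermediate filaments went both ways in the test. Of 21 desmosome and hemidesmosome genes, 14 were called higher, 6 lower and 1 did not pass (median 5.26). This is near the shares of 62.5% and 30.9% over all genes tested. The calls are relative to the TMM factors. Pkp2 and Pkp4, both called lower, went from 16.36 and 28.58 CPM of nuclear counts in muscle to 58.62 and 96.95 in mitochondria. Itgb4, which did not pass, went from 34.98 to 138.7. Of the 21, 12 were under the filter level in at least 1 muscle library. The cytolinkers Plec and Dst, which tie filaments to membranes also in muscle, went from 4687 ± 526.5 and 1713 ± 125.5 CPM of nuclear counts to 321 ± 34.5 and 524 ± 36.4. The junction protein Jup fell by 2.89 on the log2 scale but did not pass relative to mitochondrial genome counts, at -0.35 (edgeR adjusted p = 0.506). The skin cadherins Dsg1 and Dsg3 had no muscle count and 64.4 ± 11.2 and 49.1 ± 9.85 CPM in mitochondria. With total counts as the only scaling, 17 of the 21 rose and 3 fell.

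Of 17 other intermediate filament genes, 9 were called higher, 7 lower and 1 did not pass (median 0.93, beside 2.45 over all genes tested). Of all genes tested, 62.5% were called higher and 30.9% lower. These calls too are relative to the TMM factors. Iffo1, called lower, went from 21.85 CPM of nuclear counts in muscle to 59.43 in mitochondria. Lmnb1, which did not pass, went from 11.03 to 56.49. Of the 17, 7 were under the filter level in at least 1 muscle library, and with total counts 11 rose and 5 fell. Des, desmin, went from 2844 ± 285 CPM of nuclear counts to 53.4 ± 8.83, Synm, synemin, from 1108 ± 163 to 98.5 ± 9.88, and Vim, vimentin, from 205 ± 42.6 to 33.5 ± 10.7. Each of these 3 fell under every scaling run. The neuronal filament genes Nefl and Ina, with 4 and 2 muscle counts, rose to 29.8 ± 8.03 and 25.5 ± 8.31 CPM.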

How the data were processed

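The deposited values are raw counts of each gene in each library, in 1 table. Per the submitters' processing notes, the tools were STAR 2.7.11a and HTSeq, with cutadapt 4.6 and FastQC 0.74, and the build was mRatBN7.2. No source used here gives the annotation release, the strand setting or the treatment of multi-mapped reads, so counts of near-identical copies and of overlapping genes are uncertain. Mitochondrial genome genes were those named Mt- or AY172581.

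Groups came from titles, and replicate numbers pair the groups by animal. Deviations from the group means correlated between -0.008 and 0.0201 within animals. The test was edgeR 4.0.16 (glmQLFit and glmQLFTest, R 4.3.3) over all genes, with filterByExpr (minimum count 10), TMM factors over all genes and group as the only term. SE was taken as the absolute log2 fold change over the root of the F statistic. The test was tried on simulated counts drawn from the muscle composition in both groups, with changes set in well-counted genes only. That setting lacks the wide shift between the groups and the low muscle counts of the members, so it does not cover them. DESeq2 1.42.0 was an alternative. Levels are mean ± SD over 6 libraries. Intervals and floors (3 counts over the group) cover counting error only. Folds over the floor are in CPM of all gene counts, without TMM factors.

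Members, lists, keratin roles (by keratin number) and tests were chosen with earlier results of these data known. Named members are those with counts in at least 4 muscle libraries, the 2 highest of each role, the 5 highest and 3 lowest tested Krtap genes in mitochondria and the 5 largest and smallest fold changes. Of each other list the rule takes the 3 most abundant in muscle and the 2 with the largest rise. Krt5, Krt18, Krt20, Krt23, Krtap13-1, Krtap14l, Pkp2, Pkp4, Itgb4, Iffo1, Lmnb1 and the copies were named after their values were seen. RefSeq spans were matched by symbol for 66 of 82 members. Members without a sequence in the RefSeq promoter table, with more than 1 entry there or with copies under 1 symbol were left out of the motif counts. The promoters of all genes were not reduced in this way. Alternatives were RLE factors, total counts, nuclear library size, mitochondrial genome counts, no filter, DESeq2, an animal block, a fold of at least 2, thinning to 573903 nuclear counts and each library left out.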

Additional observations from a re-analysis of the deposited data

Results flagged for a closer look

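Krt80 in whole muscle had 1 library far above the other 5: replicate 3 had 1.40 CPM of nuclear counts, from 29 counts, and the others 0.103 to 0.480. Krt80 in mitochondria had its highest library in replicate 1, at 61.0 CPM from 35 counts, with the others at 37.6 to 46.2. In all, 41 groups of 6 libraries with at least 10 counts were checked, and chance gives about 1 such library in 20 groups.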

How the results depend on the processing

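All tested members were called higher under every alternative run, and none lower. Of 21 alternatives, 14 tested 69 to 81 members, and the 6 without a muscle library tested 50. Thinned to 573903 nuclear counts per library, 38 members were tested and called, of them 16 type I keratins, and 0 Krtap genes passed the filter, so none was tested by edgeR at any p. There, 8 cornified envelope and 10 hair follicle genes were called higher. Over all genes, 8666 were then higher and 4299 lower. Krtap genes called higher were 33 without the filter and in DESeq2, against 21. With single libraries left out they ranged from 2, without any 1 of the muscle libraries, to 23, since the filter level follows the median library total. All genes called lower were 7630, but 2228 when scaled by total counts alone and 1071 when scaled by mitochondrial genome counts. Of all calls, 66.9% were higher, which became 90.3% and 94.8% under those scalings, and the median log2 fold change over all genes moved from 2.45 to 4.61 and 4.81. With the animal as a replicate block 69 members were higher, 15398 genes were higher and 7571 lower. No call on a member or on a list gene taken by the naming rule changed. As a limit of depth, 3 counts are 1.68 to 4.17 CPM of all gene counts in single mitochondria libraries.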

Other observations

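Several members exist as copies under 1 symbol, and the copies were read unequally. The copies of Krt6a, a keratin of hair follicles and wounded skin, had 2 and 0 muscle counts and 97 and 135 counts in mitochondria (ENSRNOG00000068586 and ENSRNOG00000070470). Of the 3 copies of Krtap2-1, 1 had no count in any library, the only such member, and the others had 5 and 12 counts in mitochondria. The second copy of Krtap3-3 (ENSRNOG00000049383) had no muscle count and 26 counts in mitochondria, of which replicates 1 and 3 had 0 and replicate 2 had 11. No source used here says how reads that match several copies were counted, so the split between copies is uncertain.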
